A study of Rattus norvegicus with 18 samples.

Results

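Transcript levels in the rat hippocampus were compared between animals of an alcohol diet and animals of 2 diets without alcohol, in a series on learning after exposure to alcohol before birth. All 18 arrays of the series entered the comparison: 8 of the alcohol diet, 6 of an isocaloric diet and 4 of a control diet. Within each diet some animals had been trained in a procedure that the labels abbreviate as CFC and others were naive, which gave 4 trained and 4 naive arrays of the alcohol diet, 4 and 2 of the isocaloric diet, and 2 and 2 of the control diet. Neither strain, sex, age at dissection, alcohol dose and period nor the litter of each animal is given in the sources used here. An isocaloric diet commonly replaces the calories of alcohol with another source, and the labels describe neither diet further. Each array measured 1 total RNA sample, and nothing in the labels ties a sample to an animal or litter, so the spread behind each p-value may be partly technical, and any sharing of litters within a diet is not accounted for.

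The hippocampus forms memories of places and events, and its pyramidal and granule neurons signal to one another through glutamate. NMDA receptors at these synapses admit calcium when pre- and postsynaptic activity coincide, and calcium sensors, kinases and local protein synthesis then adjust the strength of the synapse. Alcohol blocks NMDA receptors acutely, and exposure before birth is known to impair hippocampal learning in rodents.

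Levels are given as log2 of the deposited signal after a small constant (6.06) was added, and a difference of 1 on this scale is a doubling. A probe set is a group of short probes for 1 transcript, and its level cannot be compared with that of another probe set. The tested difference was the alcohol mean minus the mean of the isocaloric and control diet means, with trained and naive groups weighted equally. A probe set was called at a Benjamini-Hochberg adjusted p under 0.05 from limma, a linear model fitted over all probe sets. It was counted as set apart when, in addition, at least 7 of the 8 alcohol arrays lay beyond all 10 arrays of the other diets, and as wholly apart when 8 of 8 did.

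Of 9520 probe sets tested, 1401 (14.7%) were called, 704 (7.39%) higher and 697 (7.32%) lower on alcohol arrays. They covered 586 genes that rose and 556 that fell. Differences were small: the median size among called probe sets was 0.30 and 7 exceeded 2-fold. In 1390 of the 1401 the alcohol mean lay on the same side of the isocaloric and the control mean. A call on the average of both gaps favours that order, and in 34.0% of all genes the alcohol mean lay between the others. Of the 1401, 165 were called against isocaloric alone and also against control alone, in comparisons that share the alcohol arrays. With each array centred on its own median in place of the deposited scaling, 825 rose and 485 fell, so that 63.0% of calls were higher against 50.2% as deposited. The number of calls varied with the arrays used, from 883 without isocaloric naive replicate 1 to 2392 without control naive replicate 1. It was 484 without the 4 arrays high in choroid plexus signal, which are described at the end.

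The rule of separation kept 142 of the called probe sets, 87 higher (0.914% of those tested) and 55 lower (0.578%). They belonged to 81 genes that rose and 43 that fell, and 17 probe sets had no single gene symbol. Of the 142, 65 were called against isocaloric and also against control. All 8 alcohol arrays were apart in 41 probe sets, 28 higher (0.294%) and 13 lower (0.137%), from 27 and 11 genes. Set-apart rises had differences of 0.16 to 0.95 with a median of 0.35, and set-apart falls had differences of -0.15 to -0.60 with a median of -0.34. Median centring gave 136 rises and 30 falls set apart, that is 81.9% higher against 61.3% as deposited. Without alcohol naive replicate 4 the rule counted 254 probe sets, without control naive replicate 1 it counted 236, and without the 4 arrays high in choroid plexus signal it counted 188, where the rule always allowed 1 remaining alcohol array to fall short.

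**Figure D1:**
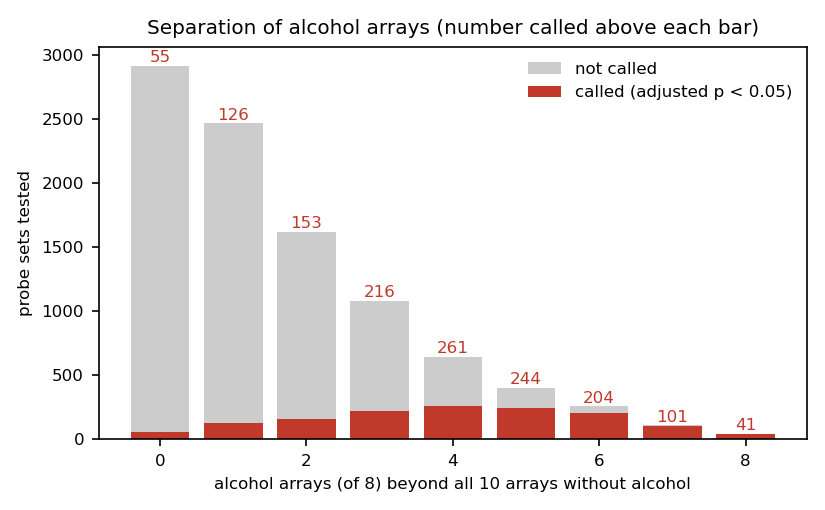
Number of probe sets tested (vertical axis) by how many of the 8 alcohol arrays lay beyond all 10 arrays without alcohol in the direction of the difference (horizontal axis), with called probe sets in red and their number above each bar. Of 42 probe sets with all 8 arrays beyond, 41 were called, against 55 of 2915 with 0 beyond.

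The threshold of 7 arrays cut through a continuous range. Just outside it, with 6 of 8 alcohol arrays beyond, 204 called probe sets included Mast3 (difference 1.12), Cdx2 (-0.54), Caskin1 (0.70), Zfp445 (-0.51) and Akt1s1 (0.76). Just inside, with 7 of 8, were Agap3 (0.84), Gosr1 (-0.56), Hpca (0.54), Isca1 (0.54) and Dmkn (-0.58).

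Promoter windows of 3 genes that were wholly apart are shown because these genes had among the clearest separations in each direction: Ptms and Clstn3, which rose, and Eif4e, which fell. Each is the 250 bases before the gene's start in RefSeq on GRCr8, printed 5′ to 3′ on the gene's own strand. Capitals mark matches, on either strand, to GGGCGG (the GC box bound by Sp1), TGACGTCA (the cyclic AMP response element, CRE) or CACGTG (the E-box bound by factors such as Usf2). The Ptms window lies at chr4:159412838-159413087 on the minus strand, the Clstn3 window at chr4:159051070-159051319 on the minus strand, and the Eif4e window at chr2:229740503-229740752 on the plus strand.
Ptms: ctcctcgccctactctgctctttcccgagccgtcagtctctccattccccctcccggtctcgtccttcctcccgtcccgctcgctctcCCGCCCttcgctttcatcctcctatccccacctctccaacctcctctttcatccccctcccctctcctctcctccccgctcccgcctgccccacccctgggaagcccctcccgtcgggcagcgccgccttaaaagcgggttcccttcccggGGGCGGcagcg
Clstn3: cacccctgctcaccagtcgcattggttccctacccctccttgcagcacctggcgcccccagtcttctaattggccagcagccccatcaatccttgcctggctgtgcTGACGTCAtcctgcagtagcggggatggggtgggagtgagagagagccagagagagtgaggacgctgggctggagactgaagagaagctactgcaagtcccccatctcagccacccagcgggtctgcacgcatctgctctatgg
Eif4e: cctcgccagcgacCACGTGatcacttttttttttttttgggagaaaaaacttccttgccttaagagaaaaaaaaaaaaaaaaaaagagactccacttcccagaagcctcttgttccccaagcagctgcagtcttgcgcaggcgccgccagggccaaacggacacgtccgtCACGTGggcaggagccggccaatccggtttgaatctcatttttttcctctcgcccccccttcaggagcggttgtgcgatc

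The Ptms window held 2 GC boxes, the Clstn3 window 1 CRE, and the Eif4e window 2 E-boxes. None of these motifs overlaps another in its letters. A GC box was present in 63.2% of the 68 matched promoters of genes set apart higher (of 81 genes) and in 62.7% of the 5818 matched promoters of all 6938 genes tested. A CRE was present in 5.88% and 2.90%, which is 4 of the 68, and an E-box in 8.82% and 8.59%. Median GC content was 62.4% and 61.2%. Only 33 of the 43 genes set apart lower (76.7%) had a matched promoter, against 83.9% of all genes tested, which limits a comparison. In these 33 a GC box was present in 54.5%, a CRE in 3.03% and an E-box in 15.2%, which is 5 of the 33. Their median GC content was 56.8%, and no difference was tested.

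Nuclear and chromatin genes are described first. Ptms encodes parathymosin, a small acidic nuclear protein that binds linker histone H1. Its log2 level ran from 10.18 to 10.71 on the 8 alcohol arrays with a median of 10.46, and from 9.39 to 9.95 on the isocaloric arrays with a median of 9.49. Control levels were 9.44 and 9.70 in naive and 9.62 and 9.47 in trained samples. The lowest alcohol array was thus above the highest of the other 10, and the isocaloric and control ranges overlapped. The difference was 0.85 ± 0.08 (SE), or 1.80-fold, with an adjusted p of 7.67e-06 from limma, and it was 0.81 against the isocaloric and 0.89 against the control diet.

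Usf2, a transcription factor that binds E-boxes, rose by 0.64 ± 0.11 (adjusted p = 0.00127, limma), with 7 of 8 alcohol arrays beyond the rest. It was 0.90 above control and 0.38 above isocaloric, where it did not pass, and was also called between isocaloric and control (0.52). A second Usf2 probe set was at -0.02 and did not pass. Nr1h2 (0.29), the liver X receptor beta, and Lmo3 (0.37), a LIM-domain cofactor, were wholly apart as well. Among the falls, Mier1, a partner of histone deacetylases, had alcohol levels from 6.98 to 7.23 with a median of 7.03, against isocaloric levels from 7.31 to 7.89 with a median of 7.64. Its control levels were 7.29 and 7.39 in naive and 7.91 and 7.38 in trained samples. The difference was -0.51 ± 0.09 (adjusted p = 0.00141, limma), and the ranges of alcohol and other arrays did not overlap.

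Bclaf1, a nuclear protein of RNA processing and transcription, was wholly apart at -0.43 ± 0.07, with another probe set at -0.06 that did not pass. Its alcohol levels ran from 7.73 to 8.37, its isocaloric levels from 8.46 to 8.69, and its control levels from 8.41 to 8.63. Nr3c1 encodes the glucocorticoid receptor, which carries the feedback of stress hormones in the hippocampus. On alcohol arrays it ran from 6.98 to 7.25 with a median of 7.16, and on isocaloric arrays from 7.37 to 7.66 with a median of 7.45. Control naive arrays gave 7.29 and 7.63, and control trained arrays 7.60 and 7.70. All 8 alcohol arrays lay lowest, by a margin of under 0.1 to the nearest control array. The receptor fell by 0.41 ± 0.06 (adjusted p = 0.00047, limma), by 0.40 against the isocaloric and by 0.42 against the control diet.

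The receptor's fall was accompanied by 1 other in the list of glucocorticoid receptor and stress-responsive genes. Tsc22d3, a gene that glucocorticoids induce, fell by 0.30 ± 0.07 with 5 of 8 arrays beyond. In all, 2 of 13 tested members fell and 0 rose, with a median of -0.08, against 7.26% falling, 6.33% rising and a median of -0.01 over the 6938 genes tested, counted with 1 probe set per gene. Of 31 genes of chromatin and DNA methylation, 6 rose and 2 fell, with a median of 0.06. Ehmt2 (0.29), a histone H3 lysine methyltransferase, Hdac4 (0.39), Hdac6 (0.27) and Crebbp (0.26), a histone acetyltransferase, rose with Ptms and H1f10. The falls were Suz12 (-0.50), of a Polycomb complex, and Hmgb1 (-0.22), a chromatin protein that bends DNA. Of these rises and falls only Ptms passed against isocaloric alone. H1f10, a linker histone, had 0 alcohol arrays beyond the others, and its control signals before log2 were low (19 to 61.1). Its difference of 1.30 ± 0.24 came with 2.05 against control and 0.54 against isocaloric, and the latter did not pass (adjusted p = 0.255, limma).

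Energy metabolism gave a further pair of clear rises. Pfkm, the muscle-type subunit of phosphofructokinase in glycolysis, ran from 8.87 to 9.06 on alcohol arrays with a median of 8.97, and from 8.46 to 8.67 on isocaloric arrays with a median of 8.56. Control levels were 8.45 and 8.17 in naive and 7.74 and 8.10 in trained samples. The alcohol arrays spanned the narrowest range and lay wholly above the others, while the control arrays lay below the isocaloric ones. Pfkm rose by 0.62 ± 0.06 (adjusted p = 7.67e-06, limma), by 0.40 against isocaloric and 0.85 against control, and a second probe set also rose, by 0.20. At that second probe set only 1 of 8 alcohol arrays lay beyond the others, and the gaps were 0.28 to isocaloric and 0.11 to control.

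Ckb, brain creatine kinase, which buffers ATP, rose by 0.49 ± 0.08 with 7 of 8 arrays beyond. Its alcohol levels ran from 10.09 to 10.81 and its isocaloric levels from 9.94 to 10.25, and only the lowest alcohol array fell within the range of the others. Hk1 (0.20), hexokinase 1, and Park7 (0.20), a redox-sensitive protein of neurons, were wholly apart by smaller amounts. Tomm40 (0.29), the channel for protein import into mitochondria, was also wholly apart upward, whereas Apoo (-0.29), a protein of the mitochondrial inner membrane, was wholly apart downward. Isca1, which assembles iron-sulfur clusters, rose by 0.54 ± 0.07 at 1 probe set and fell by 0.23 ± 0.06 at another (adjusted p = 0.0127, limma), so that no direction can be given for the gene.

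The respiratory chain did not separate in this way. Of 70 oxidative phosphorylation genes 2 rose, Ndufab1 (0.25) and Cox8a (0.21), and 1 fell, Ndufb11 (-0.14), with a median of 0.00. The shares were 2.86% and 1.43%, against 6.33% and 7.26% of all genes. In 52 of the 70 (74.3%) the alcohol mean lay between the other diets, above isocaloric and below control each time, against 34.0% of all genes that lay between in either order. The median difference was 0.13 against isocaloric and -0.11 against control. Cytosolic ribosomal proteins gave the same order in 27 of 39, and of 34 proteasome genes 20 lay between, 19 of them above isocaloric and below control. Of 34 genes of ethanol metabolism and antioxidant defence 0 rose and 0 fell.

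Of 23 genes of the synaptic vesicle and active zone 5 rose (21.7%) and 0 fell, against 6.33% and 7.26% of all genes, with a median of 0.16. The median was 0.19 against control and 0.07 against isocaloric. Vamp2, the vesicle SNARE that drives transmitter release, ran from 9.86 to 10.22 on alcohol arrays with a median of 10.02, and from 9.56 to 9.90 on isocaloric arrays with a median of 9.69. Its control levels were 9.79 and 9.50 in naive and 9.67 and 9.74 in trained samples. One alcohol array overlapped the isocaloric range, and the difference was 0.34 ± 0.05 (adjusted p = 0.000989, limma).

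Syt11 (0.43), Rab3a (0.40), a vesicle GTPase, Syn2 (0.23), a synapsin, and Syp (0.19), synaptophysin, also rose, with 1 to 3 alcohol arrays beyond, and none of these 4 passed against isocaloric alone. Syt11 was 0.14 and Rab3a 0.17 above isocaloric, and both were also called between isocaloric and control (0.57 and 0.46). Snapin, a SNARE-associated protein outside the list, was set apart downward at -0.30. The summed signal of the 9 neuron markers ran from 11674 to 14436 on alcohol, 12629 to 13205 on isocaloric and 11220 to 12777 on control arrays. Its part in these differences was not tested, and in bulk tissue more cells of a type and more RNA per cell cannot be told apart.

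Glutamate receptor and postsynaptic density genes gave 5 rises (16.7%) and 1 fall (3.33%) among 30, against 6.33% and 7.26% of all genes, with a median of 0.16. The median was 0.20 against control and 0.03 against isocaloric, and none of the 5 rises passed against isocaloric alone. Grin1 encodes the obligate subunit of the NMDA receptor. It ran from 9.24 to 9.50 on alcohol arrays with a median of 9.33, and from 8.88 to 9.16 on isocaloric arrays with a median of 9.08. Control naive arrays gave 9.19 and 8.28, and control trained arrays 8.56 and 8.59. All 8 alcohol arrays were highest, control naive replicate 1 came close, and the other 3 control arrays were far lower.

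Grin1 rose by 0.49 ± 0.09 (adjusted p = 0.00221, limma), which combined 0.69 against control with 0.28 against isocaloric, where the difference did not pass (adjusted p = 0.127). Homer3, a scaffold that links metabotropic glutamate receptors to calcium stores, had 7 of 8 arrays beyond and a difference of 0.53 ± 0.09. Shank3 (0.41), a postsynaptic scaffold, Grik5 (0.33), a kainate receptor subunit, and Nrgn (0.31), neurogranin, which binds calmodulin, rose with 3 or 4 arrays beyond. The 1 fall was Camk2a, the alpha subunit of the calcium/calmodulin kinase CaMKII. Camk2a was at -1.82 against control and at -0.20 against isocaloric, which did not pass, and another of its probe sets was at 0.47 and did not pass.

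Camk2n1, which encodes an inhibitor of CaMKII, was wholly apart downward. Its levels ran from 6.29 to 6.80 on alcohol arrays, from 6.86 to 7.36 on isocaloric arrays and from 6.88 to 7.25 on control arrays. The difference was -0.39 ± 0.08 (adjusted p = 0.00371, limma), and a second probe set was at 0.23 without passing. Of 26 calcium sensor and calcineurin genes 4 rose (15.4%) and 0 fell, against 6.33% and 7.26% of all genes, with a median of 0.06. Hpca, hippocalcin, a calcium sensor abundant in hippocampal pyramidal cells, ran from 11.00 to 11.71 on alcohol arrays with a median of 11.54, and from 10.70 to 11.28 on isocaloric arrays with a median of 10.88. Its control levels were 11.10 and 10.77 in naive and 10.87 and 10.82 in trained samples. One alcohol array overlapped both other diets, and Hpca rose by 0.54 ± 0.09 (adjusted p = 0.00166, limma). Hpcal4, of the same family, was wholly apart at 0.40 ± 0.07, and its second probe set rose by 0.41. Kcnip2 (0.32), a sensor that binds potassium channels, and Rcan1 (0.18), a calcineurin regulator, were the other rises. Of the 4 only Hpca passed against isocaloric alone.

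Cell-surface and adhesion genes were next. Clstn3, a calsyntenin of the postsynaptic membrane that promotes synapse formation, ran from 7.84 to 8.17 on alcohol arrays with a median of 8.05, and from 7.44 to 7.68 on isocaloric arrays with a median of 7.54. Control levels were 7.48 and 7.03 in naive and 7.48 and 7.32 in trained samples. No array of another diet reached the alcohol range, and the difference was 0.58 ± 0.07 (adjusted p = 0.000161, limma). In the list of axon growth and cell adhesion, 3 of 33 genes rose (9.09%) and 1 fell (3.03%), against 6.33% and 7.26% of all genes. Nlgn3 (0.51) and Nlgn2 (0.25) rose with Clstn3, and Nlgn1 (-0.22) fell, these 3 being neuroligins, which bind presynaptic neurexins. None of these 3 passed against isocaloric alone, where Nlgn2 was at 0.08, and Nlgn1 did not pass against control alone either.

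Further genes of the cell surface were wholly apart upward. They were Ptprs (0.65), a receptor tyrosine phosphatase of axons, Thy1 (0.35), a neuronal surface glycoprotein, Lynx1 (0.32), a modulator of nicotinic receptors, and Asic2 (0.38), an acid-sensing ion channel. Of these only Lynx1 passed against isocaloric alone. Ptprs was 0.34 above isocaloric and 0.96 above control, and was also called between isocaloric and control (0.62). Second probe sets of Ptprs and Asic2 also rose, by 0.50 and 0.32. Set apart downward were Cntn3 (-0.43), a contactin, Itgb1 (-0.34), the integrin beta 1 subunit, and F2rl1 (-0.35), a protease-activated receptor. Serpini1 encodes neuroserpin, an inhibitor of tissue plasminogen activator, and was wholly apart at -0.45 ± 0.10. Its alcohol levels ran from 7.99 to 8.79 and its other levels from 8.85 to 9.34, and a second probe set also fell, by 0.16.

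**Figure D2:**
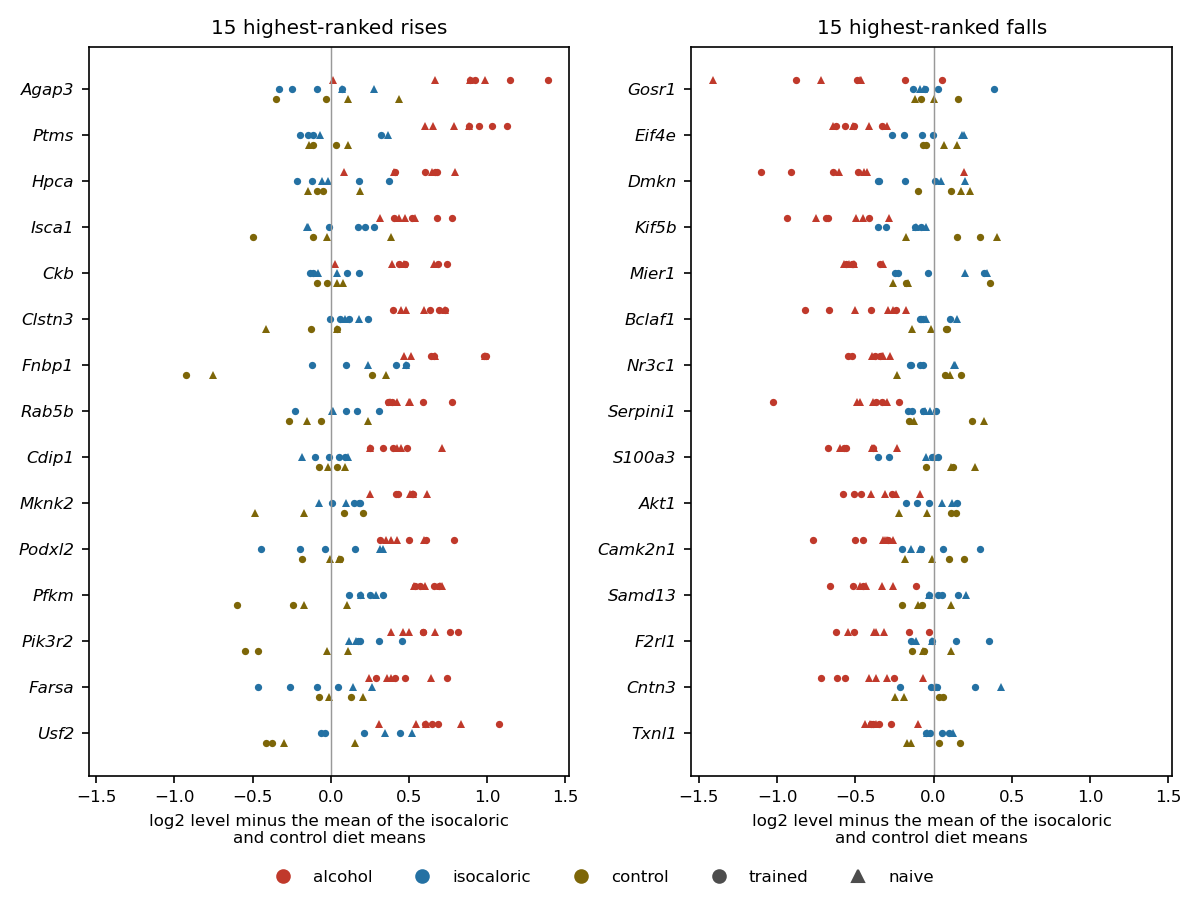
Each point is 1 array: its log2 level minus the mean of the isocaloric and control diet means (horizontal axis) for the 15 highest-ranked rises (left) and falls (right), ranked by the smaller of the gaps to the isocaloric and the control diet. Alcohol arrays are red, isocaloric blue and control brown, with circles for trained and triangles for naive samples. In Ptms, Clstn3 and Pfkm all 8 alcohol arrays lie right of every other array, and in Eif4e, Mier1 and Nr3c1 all 8 lie left.

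Traffic genes went both ways. Of 46 genes of endosome and vesicle traffic 8 rose (17.4%) and 6 fell (13.0%), against 6.33% and 7.26% of all genes, with a median of 0.01. Agap3, a GTPase-activating protein for Arf that associates with NMDA receptor complexes, ran from 7.04 to 8.41 on alcohol arrays with a median of 7.94, and from 6.69 to 7.31 on isocaloric arrays with a median of 7.02. Its control levels were 7.14 and 7.46 in naive and 6.68 and 6.998 in trained samples. One alcohol naive array fell among the others, and the remaining 7 were beyond them. Agap3 rose by 0.84 ± 0.12 (adjusted p = 0.00047, limma) and was the 1 gene with 2 probe sets set apart, the second at 0.75 ± 0.10. Another was at 0.26 and did not pass.

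Rab5b, a GTPase of early endosomes, was wholly apart at 0.50 ± 0.08, with alcohol levels of 8.47 to 8.88 against isocaloric levels of 7.88 to 8.41 and control levels of 7.84 to 8.34. The list counted Rab5b by another probe set, which was at -0.08 and did not pass. Rab11b (0.41), of recycling endosomes, Arf6 (0.34) and Ap2a2 (0.27), a subunit of the clathrin adaptor, rose as well. Rab5c (-0.49), Rab18 (-0.23) and Vps35 (-0.19), of the retromer, fell. Arf6, Ap2a2, Rab5c, Rab18 and Vps35 did not pass against isocaloric alone, and Rab5c was also called between isocaloric and control (-0.52). Copb1 (-0.18), a coat protein of Golgi vesicles, fell and was set apart, a call lost under 19 of 32 alternatives, and Gosr1, a Golgi SNARE, had a difference of -0.56 ± 0.14 at 1 probe set and -0.31 ± 0.09 at another. Kif5b, a heavy chain of the motor kinesin 1, ran from 7.63 to 8.28 on alcohol arrays with a median of 7.98, and from 8.21 to 8.52 on isocaloric arrays with a median of 8.45. Its control levels were 8.39 and 8.97 in naive and 8.86 and 8.72 in trained samples. The highest alcohol array overlapped the isocaloric range and the control arrays stood clear. Kif5b fell by 0.60 ± 0.09 (adjusted p = 0.000538, limma), whereas Kif3c, another kinesin, was set apart upward at 0.47. Kif3c was 0.69 above control and 0.25 above isocaloric, where it did not pass, and was also called between isocaloric and control (0.44).

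Protein synthesis factors were divided. Eif4e, the factor that binds the cap of messenger RNA, ran from 5.997 to 6.34 on alcohol arrays with a median of 6.13, and from 6.37 to 6.83 on isocaloric arrays with a median of 6.60. Control naive arrays gave 6.71 and 6.79, and control trained arrays 6.57 and 6.59. Every alcohol array lay below all others, and isocaloric and control means were nearly equal. Eif4e fell by 0.51 ± 0.07 (adjusted p = 0.00047, limma), by 0.51 against each of the other diets. A second Eif4e probe set was at -0.15 ± 0.06 and did not pass (adjusted p = 0.0937, limma).

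Mknk2, a kinase that phosphorylates the Eif4e protein, was wholly apart upward at 0.48 ± 0.07, with alcohol levels of 6.53 to 6.89 against 6.20 to 6.47 on isocaloric and 5.79 to 6.49 on control arrays. Eif4a1, the helicase that works with Eif4e, was wholly apart upward too. Its levels ran from 9.37 to 9.60 on alcohol, 9.05 to 9.31 on isocaloric and 9.06 to 9.24 on control arrays, with a difference of 0.33 ± 0.05 (adjusted p = 0.000557, limma). Eef2 (0.26), elongation factor 2, and Eif4b (0.30), a helicase cofactor, were set apart upward, although a second Eif4b probe set was at -0.03. Eif4b did not pass against isocaloric alone (0.20). In the list of translation factors, 5 of 46 rose (10.9%) and 4 fell (8.70%), against 6.33% and 7.26% of all genes, with a median of -0.03. The falls were Eif1a (-0.66), Eif3m (-0.37), Eif2s3 (-0.33) and Eif3j (-0.19), all initiation factors, and of these only Eif1a passed against isocaloric alone. Eif4e is not among the falls because the list counted its second probe set. Farsa, a subunit of phenylalanyl-tRNA synthetase, was set apart at 0.41 ± 0.10.

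Several kinase and phosphatase genes were set apart. Pik3r2, a regulatory subunit of phosphoinositide 3-kinase, ran from 8.25 to 8.67 on alcohol arrays with a median of 8.45, and from 7.98 to 8.32 on isocaloric arrays with a median of 8.04. Its control levels were 7.97 and 7.84 in naive and 7.40 and 7.31 in trained samples. Some alcohol and isocaloric values overlapped, the trained control arrays were far lower, and the difference was 0.61 ± 0.06 (adjusted p = 7.67e-06, limma), with another probe set at 0.14 that did not pass. Akt1, a kinase that acts after phosphoinositide 3-kinase, fell by 0.37 ± 0.08 at 1 probe set and rose by 0.35 ± 0.07 at another (adjusted p = 0.00294, limma), with 0.10 at another that did not pass, so no direction is given for the gene. Akt2 (0.20), its close relative, and Akt1s1 (0.76), a substrate of Akt, rose without being set apart. Ppp2r2c (0.59), a brain subunit of protein phosphatase 2A, was wholly apart upward, and Prkar1a (0.38), a regulatory subunit of protein kinase A, was set apart while 2 other probe sets lay at -0.07 and -0.08 without passing. In the list of cyclic nucleotide signalling, 1 of 30 genes rose, Pde1b (1.03), and 3 fell, Rapgef4 (-0.77), Gucy1b1 (-0.26) and Prkar2a (-0.24). The shares were 3.33% and 10%, against 6.33% and 7.26% of all genes.

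Of the remaining ranked genes, Cdip1, which acts in p53-dependent cell death, was wholly apart at 0.42 ± 0.06, with alcohol levels of 9.20 to 9.66 and other levels of 8.76 to 9.06. Its other probe sets were at 0.17, which passed, and at -0.07, which did not. Fnbp1 (0.73), a membrane-bending protein, and Podxl2 (0.46), a surface sialomucin, completed the rises. Fnbp1 differed by 1.00 from control but by 0.45 from isocaloric, which did not pass (adjusted p = 0.171, limma). Among the falls Dmkn (-0.58), known from epidermis, S100a3 (-0.49), a calcium-binding protein, Samd13 (-0.41) and Txnl1 (-0.34), a thioredoxin-like protein, each had 7 of 8 alcohol arrays beyond, and a second Txnl1 probe set was at 0.01.

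Further lists are given by their counts, to be read against 6.33% rising and 7.26% falling over all genes. Of 39 genes of ubiquitin conjugation 5 rose and 5 fell (12.8% each way), the largest fall being Uba3 (-0.51), and Ube2d1 (0.22) was set apart at a probe set whose partner lay at -0.18 without passing. Of 35 chaperone genes 4 rose (11.4%), among them Cct7 (0.16) with 7 of 8 arrays beyond, and 5 fell (14.3%). Immediate early and activity-induced genes gave 0 rises and 2 falls of 21, Ptgs2 (-0.48), cyclooxygenase 2, and Dusp6 (-0.16), a phosphatase of ERK kinases. Potassium channel genes gave 3 rises and 2 falls of 24, pre-mRNA splicing 3 and 6 of 42, nuclear transport 2 and 4 of 40, and cholesterol synthesis and uptake 2 and 3 of 20. For the actin cytoskeleton the counts were 3 and 2 of 32, for general transcription and mediator 2 and 3 of 35, for GABA receptors and synthesis 1 and 0 of 16, and for signalling by neurotrophins and insulin-like growth factors 1 and 1 of 20. Proteasome genes gave 0 rises and 2 falls of 34, and cytosolic ribosomal proteins 2 rises and 3 falls of 39.

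**Figure D3:**
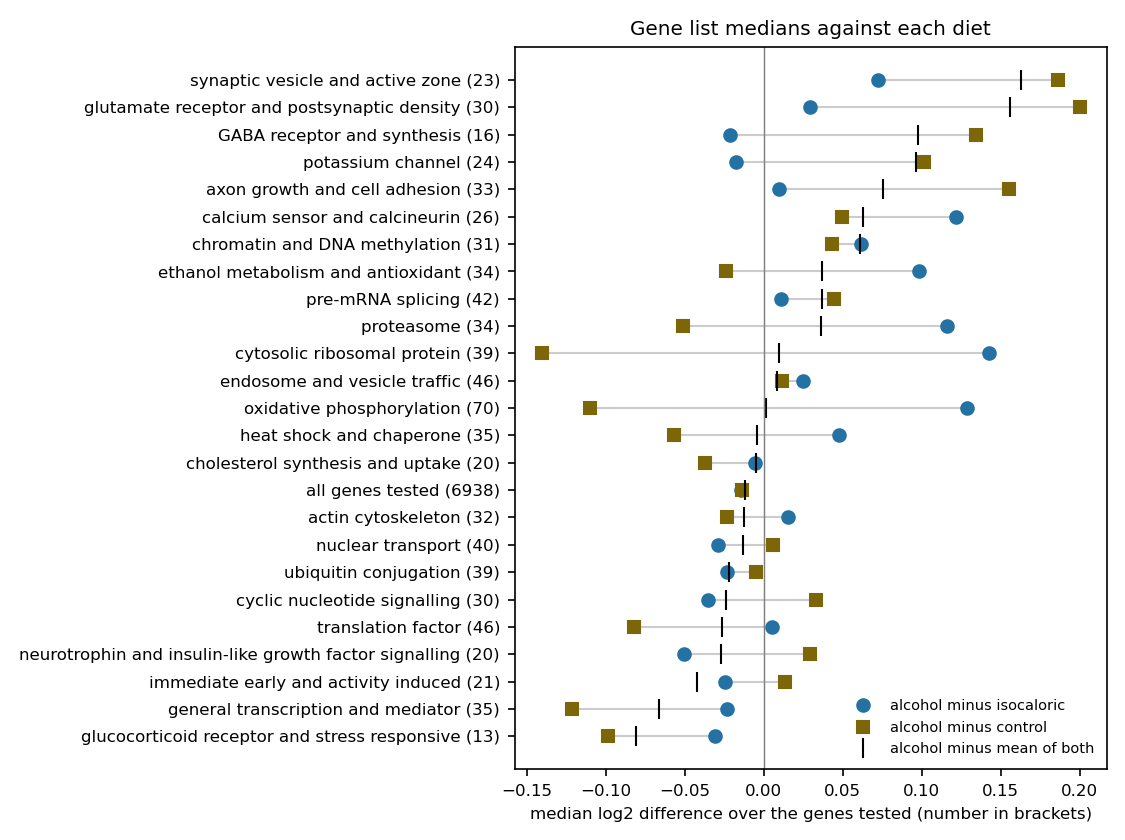
Median log2 difference over the tested genes of each list (number in brackets), alcohol minus isocaloric in blue circles, alcohol minus control in brown squares and alcohol minus the mean of both as black bars. Synaptic vesicle genes lie right of 0 against both diets, and oxidative phosphorylation genes lie at 0.13 against isocaloric and -0.11 against control.

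Different probe sets of a gene often disagreed. Of the 124 genes set apart, 47 had another tested probe set, 57 in all. Of these 57, 33 had the same sign and 9 of them were called, while 24 had the opposite sign and 5 of them were called: Isca1, Akt1, Rtn3 (-0.30), Csnk1g3 (-0.19) and Zbtb18 (-0.42). These probe sets may read different transcript ends or forms, which was not tested.

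The difference was called far more often in trained than in naive samples, where the comparison used other arrays. In trained samples 973 probe sets (10.2%) were called, 498 higher and 475 lower, and in naive samples 28 (0.294%), 21 higher and 7 lower. The median standard error was 0.110 in trained and 0.117 in naive samples. The test of the difference between the effects called 0 probe sets in limma, with 662 (6.95%) at an unadjusted p under 0.05 and a smallest adjusted p of 0.413. An effect limited to trained animals was therefore not shown. Of the 973 trained calls 871 (89.5%) had the same sign in naive samples, against 68.5% of all probe sets, and their median size was 0.41 in trained samples, where they were chosen, and 0.18 in naive samples, so the first of these is raised by the choice.

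Single arrays weighed on these counts. Without control trained replicate 1 the trained count was 378, without control trained replicate 2 it was 451, and without alcohol trained replicate 4 or 2 it was 571 or 644. Without the 4 arrays high in choroid plexus signal it was 73. The naive count was 995 without control naive replicate 1 and 906 without both control arrays whose processing notes name MAS5, and it was 2 to 7 without isocaloric naive replicate 2 (2), isocaloric naive replicate 1 (3), alcohol naive replicate 3 (3), alcohol naive replicate 1 (7) or control naive replicate 2 (7). In 682 probe sets all 4 trained alcohol arrays lay beyond the 6 other trained arrays, and in 88 of these (12.9%) all 4 naive alcohol arrays did so the same way among naive arrays, against 5.38% of all probe sets.

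Genes at the top of the trained comparison varied in how the diets were ordered. Agap3 rose by 1.26 ± 0.16 in trained samples (adjusted p = 0.000461, limma) and stood at 0.42 ± 0.17 in naive samples, which did not pass. Mast3, a microtubule-associated kinase, rose by 1.21 in trained samples and was 1.13 above isocaloric and 1.11 above control over both states, though 2 other probe sets were at 0.17 and -0.30 without passing. Nlgn3 (1.51 in trained samples), H1f10 (1.53) and Kcnab2 (1.24), a potassium channel subunit, were higher than control above all: averaged over both states they were 2.12, 2.05 and 1.65 above control and 0.45, 0.54 and 0.39 above isocaloric, none of the latter passing. The Nlgn3 and Kcnab2 probe sets here are not those counted in the lists.

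Falls in trained samples were led by Zfp638 (-1.20), a zinc finger protein, Acyp2 (-1.12), an acylphosphatase, Eif1a (-0.97), Camk2a (-0.93) and Rapgef4 (-0.87), a cyclic AMP sensor also called Epac2. Rapgef4 was at -0.87 against isocaloric and -0.68 against control over both states. Zfp638 was at -0.04 in naive samples, and its difference between states did not pass (adjusted p = 0.537, limma).

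In naive samples Ptms rose by 0.66 and Eif4e fell by 0.61, and both were also called in trained samples, at 1.03 and -0.41. Cldn5, which seals the junctions between brain endothelial cells, was higher by 0.81 in naive samples, Id1, an inhibitor of basic helix-loop-helix factors, by 0.77, Cxcl12, a chemokine, by 0.75 and Gad1, which makes GABA, by 0.71. These 4 separated control from the other diets rather than alcohol: averaged over both states they were 1.39, 1.05, 1.33 and 1.16 above control and 0.11, 0.26, -0.13 and 0.09 from isocaloric, none of the latter passing. Of 2 other Cxcl12 probe sets, 1 also rose over both states, by 0.57, and 1 was at -0.03 without passing. Another Gad1 probe set was at 0.06 over both states without passing, and at 0.13 against control. Serinc1, a membrane protein of serine incorporation, fell by 0.49 in naive and 0.49 in trained samples, and was -0.53 from isocaloric and -0.45 from control. Ube2d2, a ubiquitin-conjugating enzyme, fell by 0.68 and 0.70, with other probe sets at -0.05 and 0.11 that did not pass. The naive levels of the probe set that fell were 5.77 to 6.28 on alcohol arrays. They were 7.04 and 7.11 on isocaloric and 6.16 and 6.36 on control arrays, so alcohol and control overlapped.

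Smallest p-values for a difference between the states, none of which passed, belonged to Sdc3, a syndecan, with 0.71 in trained and -0.44 in naive samples, Myh1 with 0.45 and -0.37, and Kctd17 with 0.46 and -0.01. In the other direction they belonged to Alkbh5, an RNA demethylase, with -0.49 and 0.10, Gtf2h5 with -0.27 and 0.12, and Srsf1, a splicing factor, with -0.22 and 0.23. Over both states another Myh1 probe set fell by 0.56 (adjusted p = 0.00164, limma), and others at -0.20, -0.14 and -0.10 did not pass.

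**Figure D4:**
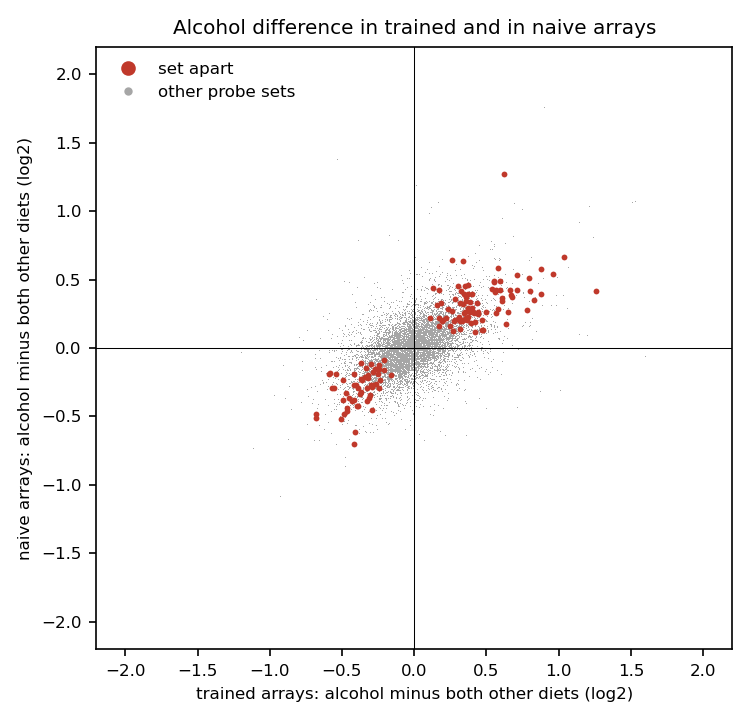
Each point is 1 of 9520 probe sets: its log2 difference between alcohol and both other diets in trained samples (horizontal axis) and in naive samples (vertical axis), with the 142 probe sets set apart in red. The red points lie in the upper right and lower left quadrants, as the rule requires alcohol arrays of both states to be beyond the others.

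The diets without alcohol also differed from each other. Over both training states 671 probe sets (7.05%) were called between isocaloric and control, 291 (3.06%) between alcohol and isocaloric and 1895 (19.9%) between alcohol and control. The last of these comparisons share the alcohol arrays, so their counts are not independent. Among the 1401 calls the gap to control was the larger in 1077 and the gap to isocaloric in 324, with median sizes of 0.36 and 0.23. Of the 142 probe sets set apart, 16 were also called between isocaloric and control.

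Endothelial markers show how the average over both diets can be called without a separation of alcohol. Of 6 tested members of the endothelial and mural list 4 rose (66.7%, against 6.33% of all genes). They were Cldn5, Esam (0.62), Flt1 (0.35) and Slc2a1 (0.27), and the list had a median of 0.31. The median was 0.69 against control and 0.03 against isocaloric. Summed list signal was 1053 to 1221 on alcohol, 1063 to 1197 on isocaloric and 650 to 718 on control arrays, so that alcohol and isocaloric overlapped and control stood alone. No member was set apart.

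Markers of the tissue were present: all 9 neuron and all 7 pyramidal cell markers on the array passed the filter on low values, as did 2 of 4 dentate granule cell markers, while 2 of 4 thalamic and 4 of 7 striatal markers also passed. Oligodendrocyte markers gave 0 rises and 1 fall of 10 on the list's probe sets, where 6.33% of all genes rose and 7.26% fell. A Mbp probe set, for myelin basic protein, was set apart at 0.34 ± 0.08 while another was at 0.17 without passing, with a summed oligodendrocyte signal of 9336 to 14230 on alcohol, 11132 to 12831 on isocaloric and 12280 to 15071 on control arrays. Glul (0.30), glutamine synthetase of astrocytes, was set apart at 1 of its probe sets, with 2 others at 0.19 and -0.05 that did not pass. The set-apart Mbp and Glul probe sets did not pass against isocaloric alone (0.30 and 0.16). In the astrocyte list Aldoc (0.22) rose and Aqp4 (-0.26) fell of 9, in the meninges list Lum (-0.42) and Col1a1 (-0.44) fell of 5, and in the neuron list Syp rose and Nefm (-0.21) fell of 9. None of the 9 microglia, 9 interneuron, 7 pyramidal cell, 5 choroid plexus or 4 striatal markers was called, each read by its probe set with the highest mean, which for Gad1 is not the one that rose in naive samples.

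Choroid plexus is tissue beside the hippocampus that a dissection can include. Summed signal of its markers was 8674 to 10738 on 4 arrays (alcohol trained replicate 4, alcohol naive replicate 2, isocaloric trained replicate 3 and control trained replicate 1) and 760 to 1607 on the other 14. The test between alcohol and other arrays gave p = 0.780 (exact permutation test, two-sided). RNA integrity was read from the log2 ratio of 3′ to 5′ control probe sets. For Gapdh the ratio was 0.257 ± 0.120 (SD, n = 8) on alcohol, 0.133 ± 0.040 (n = 6) on isocaloric and 0.258 ± 0.073 (n = 4) on control arrays (exact permutation p = 0.140, adjusted over 3 measures 0.258). For actin it was 0.397 ± 0.161, 0.407 ± 0.079 and 0.641 ± 0.094 (exact permutation p = 0.172, adjusted 0.258). These tests pooled isocaloric with control arrays, so they address neither a difference between those diets nor one between alcohol and either diet alone. The actin ratio ran from 0.187 to 0.668 on alcohol, 0.318 to 0.505 on isocaloric and 0.538 to 0.729 on control arrays. With the Gapdh ratio as a covariate 817 probe sets were called and 127 set apart, and with the actin ratio 651 and 111.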

How the data were processed

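The values deposited by the authors are 1 linear signal intensity per probe set and array, for 15923 probe sets, and the 2% trimmed mean lay near 150 on every array (150.029 to 150.035). MAS5 is named for 2 control arrays (naive replicate 1, trained replicate 2) in the submitters' processing notes, and none of the sources used here gives the algorithm for the others. Those 2 arrays also differ from the rest in number format, with 100% of values written in at most 6 digits against 3.10% to 3.67%. Common scaling can hide a change of total RNA. Gene names came from the platform annotation, 12789 probe sets having 1 symbol.

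Before taking log2, 6.06 (the 10th percentile over all arrays) was added to each intensity, which understates changes of dim probe sets. Probe sets with a mean under the 40th percentile were left out. limma 3.58.1 in R 4.3.3 was fitted on the 6 group means with eBayes and a trend, two-sided, with Benjamini-Hochberg adjustment over 9520 probe sets at 0.05, and was tested on simulated data. Python 3.11.15, pandas 2.3.3 and matplotlib 3.10.9 handled tables and plots.

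Named genes were the 15 set-apart rises and 15 falls with the largest smaller gap to either diet, list members set apart, the 5 largest changes each way in trained and in naive samples (fewer where fewer had usable symbols), and the 3 smallest p each way for their difference. Further set-apart genes and called list members were named after their values were seen. Lists used the probe set with the highest mean per gene. The members, the rule and the 37 lists were chosen with earlier results of these data known. Arrays number 2 to 8 per comparison arm, which limits precision. Alternatives were normalization, constant, filter, design, weights, covariates and arrays left out.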

Additional observations from a re-analysis of the deposited data

Results flagged for a closer look

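Among the ranked genes, the set-apart list members and the control ratios, 8 groups held 1 array far from the rest by Dixon's criterion. In all 135 groups were looked at, and chance alone marks about 1 in 20 groups. Alcohol trained replicate 4 was low in Serpini1 (7.99, others 8.53 to 8.79) and in Cct7 (9.0, others 9.18 to 9.34), and alcohol trained replicate 2 was low in Ube2d1 (7.13, others 7.30 to 7.43). Alcohol naive replicate 4 was low in Mbp (11.57, others 12.08 to 12.31), where it lay below all 10 arrays of the other diets while the remaining 7 alcohol arrays lay above them, and it also had the lowest summed oligodendrocyte signal of its diet (9336). Alcohol naive replicate 2 was high in Copb1 (8.29, others 7.79 to 8.01). Isocaloric trained replicate 4 was high in Gosr1 (6.95, others 6.43 to 6.60) and isocaloric trained replicate 3 was low in Grin1 (8.88, others 9.07 to 9.16). Control trained replicate 1 was high in Mier1 (7.91, others 7.29 to 7.39).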

How the results depend on the processing

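Alternatives were run for the genes named by rule, not for the further genes named after their values were seen. No gene that was run changed direction: of 2000 values under alternatives, 1865 kept their side of the threshold, 134 lost the call and 1 gained it. Most of these genes were chosen for their calls in these same arrays, which favours a kept direction. Of the 30 ranked genes, 22 kept the call under every alternative run, Fnbp1, Farsa, Gosr1, Dmkn, Akt1, Samd13 and Cntn3 lost it under 1 and F2rl1 under 5. Outside the ranked genes, the calls lost most often were those of Ube2d1 (22 of 32), Copb1 (19 of 32) and Cct7 (9 of 32) and, in naive samples, Ube2d2 (19 of 30), Id1 (13 of 31), Serinc1 (10 of 31) and Gad1 (7 of 31). The 1401 calls became 608 with all arrays without alcohol as 1 group, 852 with the replicate block, 484 without the 4 arrays high in choroid plexus signal, 817 with the Gapdh ratio as a covariate and 651 with that of actin. Leaving out 1 array gave 883 to 2392 calls, 133 to 254 set apart and 40 to 77 wholly apart. Without the 2 control arrays noted as MAS5, 235 were set apart and 80 wholly apart. The 973 trained calls became 181 with 1 group, 73 without the choroid-high arrays and 212 with the Gapdh ratio, and 378 to 1418 without 1 array. The 28 naive calls became 16 with no filter on low values, 0 with 1 group (limma), 7 with the replicate block, 906 without the MAS5 arrays and 0 with the actin ratio, and 2 to 995 without 1 array. The difference between states gave 1 call without the MAS5 arrays, 1 without the choroid-high arrays and 1 with the Gapdh ratio, and 0 to 15 without 1 array. The causes were not tested, beyond the smaller number of arrays in some fits. Replicate numbers did not pair the samples: over 36 pairs of equal number the mean correlation of deviations was -0.025, with 4 over 0.1. Where 1 array remains in a group, its spread is taken from the other groups, so a higher count there is no sign of a stronger effect.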
